A study of Mus musculus with 6 samples.

Results

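S100 proteins are small calcium-binding proteins, and the 10 genes described here, S100a1, S100a3, S100a4, S100a6, S100a8, S100a9, S100a10, S100a11, S100a13 and S100a16, are members of the family whose rows were picked by gene name from the 53546 genes in the count files. They are 10 of 18 S100 protein genes in those files. The list was drawn up with results of these libraries known, so the differences between genotypes are given for its members as descriptions, and where tests over all genes called a member, that is stated beside the share of all genes called and nothing is read from it. RNA came from hepatic non-parenchymal cells of male mice, a fraction of sinusoidal endothelium, Kupffer and stellate cells and further leukocytes. Scavenger receptor A is an endocytic receptor of macrophages. SRA-/- mice, in which its gene is disrupted, gave 3 libraries and wild type mice gave 3. Every mouse, of either genotype, had received acetaminophen into the peritoneum at 400 mg/kg 6 h before. Acetaminophen at high dose injures hepatocytes. The sources used here give neither strain, age nor how the SRA allele was made. The values therefore compare genotypes after acetaminophen and not injected with uninjected mice. The replicates are called biological in the labels.

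S100 proteins carry a pair of EF-hand calcium-binding loops, work mostly as dimers, and bind other proteins once calcium has opened their structure. S100A8 and S100A9 form calprotectin, which fills the cytosol of neutrophils, withholds zinc and manganese from microbes, and acts outside the cell as a danger signal through Toll-like receptor 4 and the receptor RAGE. Other members work inside cells, where S100A10 and S100A11 are bound to annexins at membranes.

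All 10 genes lie on chromosome 3. In the coordinates of the count files (mm39), 8 of them sit among other S100 genes in 184688 bases from 90418341 (S100a1) to 90603028 (S100a9), and S100a11 (93427795 to 93433594) and S100a10 (93462387 to 93471950) lie 2824766 bases further on. S100a8 (90576285 to 90577342, + strand) and S100a9 (90599939 to 90603028, - strand) are neighbours in the annotation, separated by 22596 bases. S100a1 (90418341 to 90421699, - strand) and S100a13 (90421742 to 90431888, + strand) stand head to head with 42 bases between them.

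The promoter windows of the calprotectin pair are shown because both genes had higher mean levels in SRA-/- libraries. That of S100a1 is shown because it shares 204 bases with the window of S100a13. The sequences are those of RefSeq on GRCm38.p6, an earlier build than that of the counts. They run 5' to 3' on the gene's strand from 250 bases before the annotated start to 50 after it. Capitals mark letters that match any of 5 motifs on either strand, TATA box (TATAAA), C/EBP (TTGCNNAA), AP-1 (TGANTCA), PU.1 (GAGGAA) and GC box (GGGCGG).
S100a8 (chr3:90668821-90669120, + strand): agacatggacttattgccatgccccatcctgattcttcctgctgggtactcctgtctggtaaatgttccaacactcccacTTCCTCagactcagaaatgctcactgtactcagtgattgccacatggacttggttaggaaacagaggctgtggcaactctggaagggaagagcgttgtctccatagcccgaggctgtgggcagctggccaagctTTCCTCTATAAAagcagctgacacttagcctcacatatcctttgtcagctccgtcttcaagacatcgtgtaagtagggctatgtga
S100a9 (chr3:90695672-90695971, - strand): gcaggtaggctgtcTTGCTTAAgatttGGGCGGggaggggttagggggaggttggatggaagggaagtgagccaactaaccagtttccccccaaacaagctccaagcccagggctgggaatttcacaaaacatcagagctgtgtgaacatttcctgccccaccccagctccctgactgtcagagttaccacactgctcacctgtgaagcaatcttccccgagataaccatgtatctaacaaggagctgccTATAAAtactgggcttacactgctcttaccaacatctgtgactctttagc
S100a1 (chr3:90514281-90514580, - strand): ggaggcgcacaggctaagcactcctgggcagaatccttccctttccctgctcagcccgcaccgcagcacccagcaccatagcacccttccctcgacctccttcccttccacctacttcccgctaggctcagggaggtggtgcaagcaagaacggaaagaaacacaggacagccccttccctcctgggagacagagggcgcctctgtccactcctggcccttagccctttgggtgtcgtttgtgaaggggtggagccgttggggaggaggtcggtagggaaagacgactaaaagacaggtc
The S100a8 window held a TATA box at base 221 and PU.1 letters at bases 81 and 215, the last directly before the TATA box with no shared letter. The S100a9 window held a TATA box at base 251, C/EBP letters at base 15 and a GC box at base 28. Its TATA box letters begin on the annotated start, while those of S100a8 begin at -30 from the start. The windows of S100a1 and S100a13 held none of the 5 motifs. Of 32851 promoter windows of the same length, 13.6% held the TATA box, 10.8% the C/EBP letters, 28.3% the PU.1 letters, 35.7% the GC box and 7.81% the AP-1 letters. A match describes the letters and is not a measured binding site. Windows were found for 9 of the 10 genes.

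Library totals ran from 23757203 to 44003902 counts. Mates were counted separately, so 6 counts stand for at least 3 fragments. Those 6 counts make 0.136 to 0.253 CPM, a gene's counts scaled to a library total of 1000000. Markers of Kupffer cells, sinusoidal endothelial cells and stellate cells were all detected in every library. RNA of hepatocytes was present throughout, with 8 markers summing to 43565 to 83129 CPM in SRA-/- libraries and 25937 to 65728 CPM in wild type libraries. The 10 markers of pancreatic acinar cells summed to 2.75, 300.3 and 2.23 CPM in SRA-/- replicates 1, 2 and 3. In wild type replicates 1, 2 and 3 they summed to 434, 439 and 885 CPM. SRA-/- replicates 1 and 3, the lowest in these markers, were also the libraries with the most S100a8 and S100a9. The part of pancreatic RNA in these S100 values was not tested. Msr1, the gene of scavenger receptor A, had 1848, 1005 and 925 counts in SRA-/- replicates 1, 2 and 3, against 1123, 1936 and 3838 in wild type replicates 1, 2 and 3. Its count over the whole gene thus does not separate the genotypes, no source used here names the disrupted exon, and the genotypes are taken from the labels. SRA-/- replicate 2 and wild type replicate 1 stood apart in neutrophil markers, as given below, so the fold changes of S100a8, S100a9 and S100a6, the neutrophil markers and the values of the calprotectin pair are given with and without them. Mitochondrial genes took 11.2%, 21.1% and 6.64% of counts in SRA-/- replicates 1, 2 and 3, against 19.8%, 9.95% and 16.1% in wild type replicates 1, 2 and 3. The same libraries, SRA-/- replicate 2 and wild type replicate 1, thus had the highest mitochondrial shares and the lowest sums of the 10 S100 genes, and the part of RNA quality in these values was not tested.

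S100a8 had no overlap between genotypes and was the higher in SRA-/-, as were 3.51% of all tested genes. Its level was 11.8, 4.81 and 12.96 CPM in SRA-/- replicates 1, 2 and 3, against 1.599, 2.59 and 3.53 CPM in wild type replicates 1, 2 and 3. That is 9.85 ± 4.41 CPM against 2.57 ± 0.965 CPM (SD, n = 3 each), a ratio of means of 3.83. The log2 fold change from edgeR was 1.99 ± 0.40 (SE). SRA-/- replicate 2 was less than 2 CPM above the highest wild type library, while the other SRA-/- libraries were over 3 times that library. The log2 fold change was 2.33 without SRA-/- replicate 2, 1.80 without wild type replicate 1 and 2.14 without both.

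S100a9, the partner of S100a8 in calprotectin, had the largest difference in mean of the members, but its groups overlapped. It stood at 35.1, 7.93 and 44.0 CPM in SRA-/- replicates 1, 2 and 3, against 2.68, 6.86 and 9.78 CPM in wild type replicates 1, 2 and 3. SRA-/- replicate 2 lay between wild type replicates 2 and 3, and the other SRA-/- libraries lay far above all wild type libraries. The means were 29.0 ± 18.8 CPM and 6.44 ± 3.57 CPM (SD, n = 3 each), a ratio of 4.50, and the log2 fold change was 2.26 ± 0.59 (SE). It was 2.71 without SRA-/- replicate 2, 1.93 without wild type replicate 1 and 2.38 without both.

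The ratio of the calprotectin genes to each other overlapped between genotypes over all 6 libraries. Per exon length, S100a9 was 3.96, 2.19 and 4.51 times S100a8 in SRA-/- replicates 1, 2 and 3, against 2.22, 3.52 and 3.69 times in wild type replicates 1, 2 and 3. The ratio averaged 3.56 ± 1.21 in SRA-/- libraries and 3.14 ± 0.7999 in wild type libraries (SD, n = 3 each). Without SRA-/- replicate 2 and wild type replicate 1 it averaged 4.24 in SRA-/- libraries and 3.602 in wild type libraries (n = 2 each). The remaining libraries did not overlap, but the libraries left out, chosen after seeing the data, had the lowest ratios of all 6. With n = 2 each, nothing is read from that separation. The joint share of S100a8 and S100a9 in the family's counts did not overlap between genotypes. S100a8 and S100a9 made up 38.7% (95% interval 36.8 to 40.6), 19.4% (17.0 to 22.0) and 41.9% (39.5 to 44.3) of the counts of the 10 genes in SRA-/- replicates 1, 2 and 3. In wild type replicates 1, 2 and 3 they made up 8.16% (6.46 to 10.3), 10.8% (8.96 to 12.7) and 11.3% (9.90 to 12.9). The exact Clopper-Pearson intervals take 2 counts as 1 fragment and cover counting error only. The mean share was 33.3% ± 12.2 in SRA-/- libraries and 10.1% ± 1.68 in wild type libraries (SD, n = 3 each), and without SRA-/- replicate 2 and wild type replicate 1 it was 40.3% in SRA-/- libraries and 11.03% in wild type libraries (n = 2 each). S100a1 and S100a10 together held 46.1% ± 4.61 of the family's counts in SRA-/- libraries and 64.6% ± 3.52 in wild type libraries (SD, n = 3 each). Shares of the same sum are not independent of each other, and in CPM both S100a1 and S100a10 overlapped between genotypes.

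**Figure D1:**
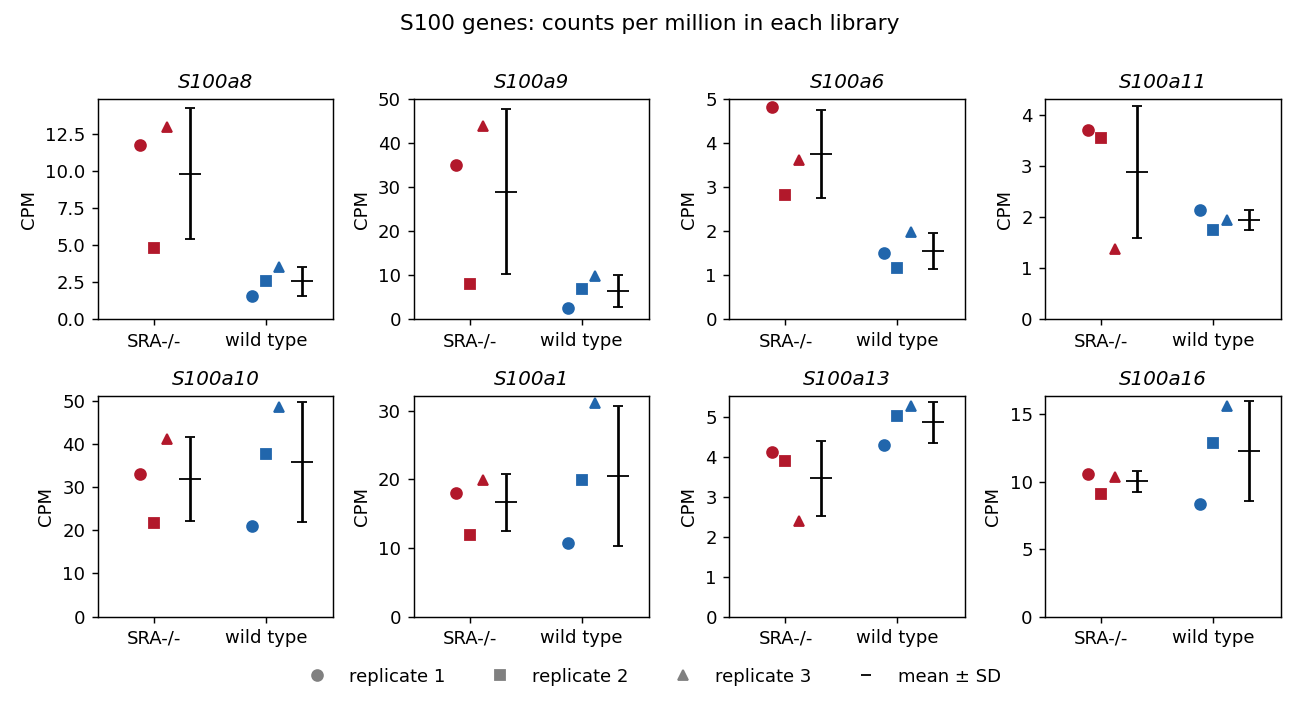
CPM of the 8 S100 genes with reads, one panel per gene, with the y axis starting at 0, red points for SRA-/- libraries, blue points for wild type libraries and black bars for the mean ± SD (n = 3). S100a8 and S100a6 separate the genotypes upwards, as do 3.51% of all tested genes, and S100a13 downwards, as do 3.12%. S100a9 overlaps through SRA-/- replicate 2 at 7.93 CPM.

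Neutrophil markers were highest in the libraries with the most S100a8 and S100a9, SRA-/- replicates 1 and 3. The 17 markers, which include neither S100 gene, summed to 325, 153 and 276 CPM in SRA-/- replicates 1, 2 and 3, against 94.8, 125 and 118 CPM in wild type replicates 1, 2 and 3. Between 15 and 17 of them had reads in each library. The defining marker Ly6g was near absent, with 0, 4 and 15 counts in SRA-/- replicates 1, 2 and 3 and 1, 0 and 3 in wild type replicates 1, 2 and 3. The 12 markers with enough reads for the test had a median log2 fold change of 1.51, against -0.01 over all tested genes, and 10 of them lay above 0. Of all tested genes 48.3% lay above 0. The markers below 0 were Wfdc21 at -0.29 ± 0.27 and Elane at -0.30 ± 0.46 (SE). None of the markers passed edgeR's test over all genes (0.0487% of genes called), and 8 had an unadjusted p under 0.05 (3.22% of genes). DESeq2 called 2, Csf3r and Il1r2 (0.208% of genes), and limma-voom 0 (0.482% of genes). With 13 markers tested, the median log2 fold change was 1.93 without SRA-/- replicate 2, 1.296 without wild type replicate 1 and 1.77 without both. In these fits edgeR called 1, 0 and 6 of the 13, against 40 of 21150, 13 of 21243 and 101 of 20421 tested genes. These libraries were left out because they stood apart in the same markers, so nothing is read from these medians and calls. B cell markers also lay apart between genotypes, the 5 summing to 18.3, 24.8 and 15.5 CPM in SRA-/- replicates 1, 2 and 3, against 9.29, 8.62 and 11.1 CPM in wild type replicates 1, 2 and 3. All 5 lay above 0 in log2 fold change, around a median of 1.13, and edgeR called 0 of them, with 3 at an unadjusted p under 0.05, DESeq2 0 and limma-voom 1. Their highest sum was in SRA-/- replicate 2, the SRA-/- library with the least S100a8 and S100a9, and their part in the S100 values was not tested.

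S100a9 ranked the 6 libraries in the order of those 12 markers' median, and S100a8 did so but for SRA-/- replicate 2, which stood above wild type replicate 3. The median marker lay 1.16, -0.37 and 1.27 log2 units from its 6-library mean in SRA-/- replicates 1, 2 and 3, and -1.44, -0.53 and -0.20 in wild type replicates 1, 2 and 3. S100a8 differed from that median by at most 0.39 log2 units in any library. S100a9 lay 0.78 above it in SRA-/- replicate 3 and -0.48 from it in wild type replicate 1. Set per length against Csf3r, which encodes the G-CSF receptor, S100a8 was 1.56, 1.53 and 1.88 times its level in SRA-/- replicates 1, 2 and 3, against 1.76, 1.03 and 1.32 times in wild type replicates 1, 2 and 3. S100a9 was 6.16, 3.35 and 8.46 times Csf3r per length in SRA-/- replicates 1, 2 and 3, against 3.91, 3.64 and 4.86 times in wild type replicates 1, 2 and 3. SRA-/- replicates 1 and 3 were above every wild type library in this ratio and SRA-/- replicate 2 was below all of them. In these bulk libraries fewer cells of a type and less RNA per cell cannot be told apart, and the part of neutrophil number in the S100 values was not tested.

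**Figure D2:**
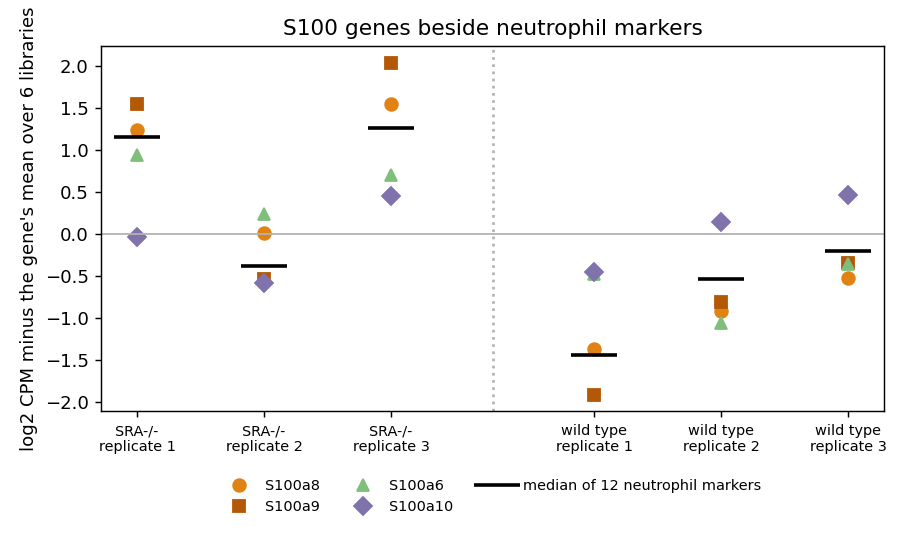
Log2 CPM of S100a8, S100a9, S100a6 and S100a10 in each library minus the gene's mean over the 6 libraries, with a black bar for the median of 12 neutrophil markers. S100a8 stays within 0.39 log2 units of the marker median, while S100a10 lies below it in all SRA-/- libraries and above it in all wild type libraries.

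Over the 6 libraries, the patterns most like that of S100a8 included those of Tnfsf14, Mmp9, Mcemp1 and Rdh12, with root mean square differences of centred log2 CPM of 0.15, 0.24, 0.24 and 0.27. Those nearest to S100a9 were Cxcr2, Osm, Mmp8, Retnlg and Chil1, at 0.26, 0.27, 0.27, 0.28 and 0.29. They come from a search of 12901 genes, and Mmp9, Cxcr2, Mmp8 and Retnlg are also on the neutrophil marker list. S100a8 and S100a9 differed from each other by 0.40, and the SD of log2 CPM over the 6 libraries was 1.503 for S100a9 and 1.18 for S100a8.

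S100a6, or calcyclin, is made by many proliferating and stromal cells. Its SRA-/- libraries all lay above its wild type libraries, at 4.82, 2.82 and 3.62 CPM in SRA-/- replicates 1, 2 and 3, against 1.51, 1.16 and 1.99 CPM in wild type replicates 1, 2 and 3. SRA-/- replicate 2 was the lowest of its group, though the groups stayed apart, as did those of 3.51% of all tested genes in this direction. The means were 3.75 ± 1.004 CPM and 1.55 ± 0.418 CPM (SD, n = 3 each), with a log2 fold change of 1.29 ± 0.32 (SE). It was 1.47 without SRA-/- replicate 2, 1.36 without wild type replicate 1 and 1.54 without both. Among all genes searched, Itgax (the integrin CD11c), Lipt1 and Carns1 had the patterns most like it, at 0.20, 0.21 and 0.23.

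S100a10, the partner of annexin A2 and a member that holds its active shape without calcium, had the most counts of the family, 6217 over the 6 libraries. It stood at 33.0, 21.7 and 41.1 CPM in SRA-/- replicates 1, 2 and 3, against 21.1, 37.6 and 48.6 CPM in wild type replicates 1, 2 and 3. The groups overlapped almost wholly, at 31.9 ± 9.77 CPM and 35.8 ± 13.9 CPM (SD, n = 3 each), and the log2 fold change was -0.10 ± 0.30 (SE). Its sign turned to 0.13 without SRA-/- replicate 2 and likewise to 0.13 without wild type replicate 3. Per length, S100a10 was 4.79, 3.09 and 8.22 times the level of Anxa2 in SRA-/- replicates 1, 2 and 3, against 5.98, 6.16 and 7.49 times in wild type replicates 1, 2 and 3. Its nearest patterns were those of Diaph1, Lmna and Etv6, at 0.083, 0.10 and 0.10.

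S100a11, a partner of annexin A1, has near-identical copies elsewhere in the genome, so its count is uncertain. It had 163, 106 and 33 counts in SRA-/- replicates 1, 2 and 3, against 70, 44 and 61 in wild type replicates 1, 2 and 3. SRA-/- replicate 3 was the lowest of all libraries, and the other SRA-/- libraries were the highest. The means were 2.89 ± 1.298 CPM and 1.96 ± 0.198 CPM (SD, n = 3 each), with a log2 fold change of 0.56 ± 0.37 (SE). The transcripts of S100a11 matched 9 processed pseudogenes at 80% identity or more. Among these Gm12854 (chromosome 4, 115924465 to 115924761), 99.0% identical over 297 bases, and Gm7665, 98.7% identical, drew 601 and 205 counts over the 6 libraries, against 477 for S100a11 itself. Reads that align to several places were not counted, so how reads split among these genes is unknown. Summed over S100a11 and these 2 copies the level was 10.1, 7.73 and 6.06 CPM in SRA-/- replicates 1, 2 and 3, against 3.998, 5.31 and 6.48 CPM in wild type replicates 1, 2 and 3, and the groups still overlapped. The patterns nearest to S100a11 were those of Tnfrsf26, Ttll8 and Mapk8ip1, at 0.16, 0.17 and 0.18.

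S100a1, best known from heart muscle, where it binds calcium-handling proteins, was among the most abundant members per length. It had 18.0, 11.9 and 19.99 CPM in SRA-/- replicates 1, 2 and 3, against 10.7, 19.9 and 31.1 CPM in wild type replicates 1, 2 and 3. Wild type libraries held both the lowest and the highest value. The means were 16.6 ± 4.1999 CPM and 20.6 ± 10.2 CPM (SD, n = 3 each), with a log2 fold change of -0.24 ± 0.33 (SE) that turned to 0.13 without wild type replicate 3. S100a1 and S100a10 had the most similar patterns of any pair of members, with a root mean square difference of 0.12, and Rab18, Ndufb3 and Csrp2 were nearer still to S100a1, at 0.060, 0.061 and 0.079.

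S100a13 takes part in the export of fibroblast growth factor 1 and interleukin 1 alpha by a route outside the classical secretory pathway. It was lower in each SRA-/- library, at 4.14, 3.90 and 2.399 CPM in SRA-/- replicates 1, 2 and 3, than in each wild type library, at 4.31, 5.03 and 5.29 CPM in wild type replicates 1, 2 and 3. SRA-/- replicate 1 and wild type replicate 1 were close together, and SRA-/- replicate 3 was lowest. Among all tested genes 3.12% lay apart in this direction. The means were 3.48 ± 0.942 CPM and 4.88 ± 0.511 CPM (SD, n = 3 each), and the log2 fold change was -0.47 ± 0.25 (SE). Although S100a13 and S100a1 start next to each other, S100a1 was 4.48, 3.15 and 8.59 times S100a13 per length in SRA-/- replicates 1, 2 and 3, against 2.57, 4.07 and 6.06 times in wild type replicates 1, 2 and 3. Their patterns differed by 0.57, and Asb14, Trpm5 and Gadd45gip1 were nearest to S100a13, at 0.064, 0.064 and 0.066.

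S100a16, a widely expressed member, varied least over the libraries, with an SD of 0.25 in log2 CPM over the 6. It had 10.6, 9.11 and 10.4 CPM in SRA-/- replicates 1, 2 and 3, against 8.30, 12.9 and 15.6 CPM in wild type replicates 1, 2 and 3. All SRA-/- libraries fell within the wild type range. The means were 10.01 ± 0.789 CPM and 12.3 ± 3.68 CPM (SD, n = 3 each), with a log2 fold change of -0.25 ± 0.22 (SE). Actn1, Trmt10c and Nos3 had patterns within 0.027, 0.035 and 0.035 of it.

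S100a4 and S100a3 had 0 counts in all 6 libraries. S100a4, or metastasin, binds non-muscle myosin and is made by many macrophages and fibroblasts, and S100a3 is a protein of the hair cuticle. The limit for each library was 6 counts, or 0.136 to 0.253 CPM, and this covers counting error only. Of the 584 exon bases of S100a4 (90511078 to 90513352), 302 are also exon of Gm42674, a gene on the same strand that also had 0 counts. Reads that overlap several genes were not counted. The 0 of S100a4 and its limit of 6 counts thus speak only for reads lying wholly within the other 282 bases. These bases lie in stretches of 36, 86 and 160. S100a3 (90491966 to 90510009) shares 153 exon bases with S100a2 and 144 with Gm42674 and keeps 2373 bases of its own. The part of shared exons in these zeros was not tested.

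Set side by side per length, as CPM per kilobase of exon (RPKM), the order of mean levels differed between the genotypes. In SRA-/- libraries S100a9 was first at 55.5 ± 36.0, followed by S100a10 at 26.3 ± 8.06, S100a1 at 24.0 ± 6.05 and S100a8 at 14.2 ± 6.35 RPKM (SD, n = 3). In wild type libraries S100a1 was first at 29.6 ± 14.7, followed by S100a10 at 29.5 ± 11.4, S100a9 at 12.3 ± 6.85 and S100a16 at 7.58 ± 2.28 RPKM, and S100a8 was the seventh at 3.71 ± 1.39 RPKM (SD, n = 3). Most neighbours in these orders overlapped. S100a9 was above S100a10 in 2 of 3 SRA-/- libraries, and S100a1 was above S100a10 in 1 of 3 wild type libraries. Library ranges were apart only between S100a8 and S100a16 in SRA-/- libraries, and between S100a13 and S100a11 and between S100a8 and S100a6 in wild type libraries. S100a6 was the lowest with reads in both, at 2.75 ± 0.735 and 1.13 ± 0.306 RPKM (SD, n = 3 each). Exon lengths join all annotated isoforms, so genes with long alternative exons, such as S100a6 with 1367 bases, are understated.

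**Figure D3:**
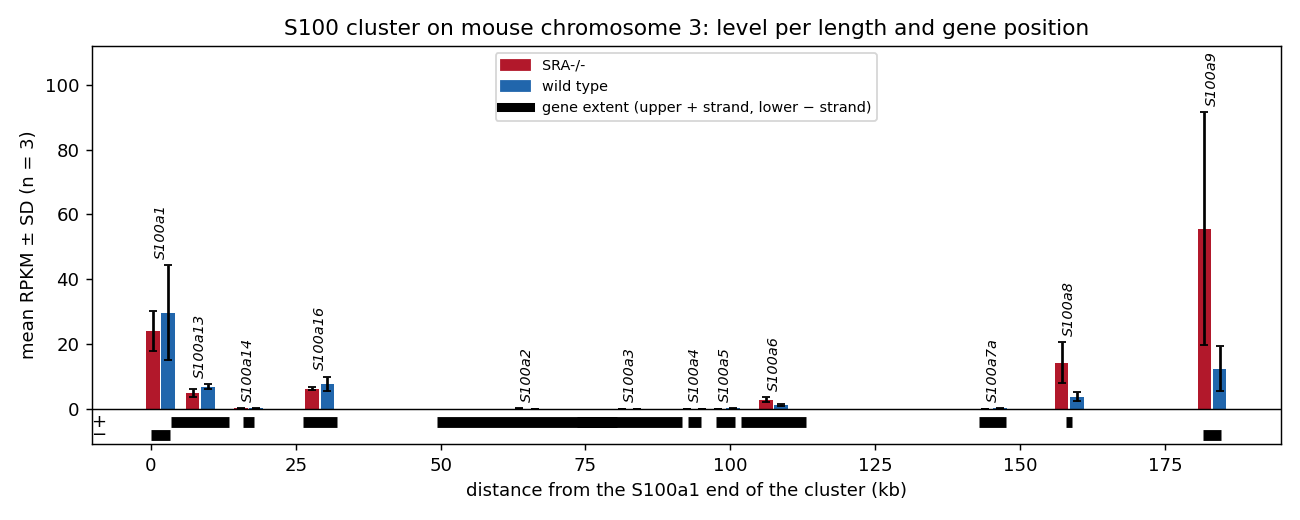
The cluster of S100 genes on chromosome 3, with distance in kb from its S100a1 end on the x axis and mean RPKM ± SD (n = 3) on the y axis, red for SRA-/- and blue for wild type. Black bars show the extent of each gene. Levels above 10 RPKM in either genotype stand at the ends of the cluster, at S100a1, S100a8 and S100a9, and S100a2 to S100a5 between them have almost no reads.

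All 10 genes together took 121, 65.7 and 136 CPM in SRA-/- replicates 1, 2 and 3, against 52.4, 87.8 and 118 CPM in wild type replicates 1, 2 and 3. The genotypes overlapped in this sum. Of the 10 genes, 8 had enough reads to be tested, 4 with log2 fold changes above 0 and 4 below, and the median was 0.23, against -0.01 over all 20541 tested genes, of which 48.3% were above 0. None of the 8 passed edgeR's quasi-likelihood test at an adjusted p of 0.05 over all genes, where 0.0487% of tested genes were called, 0.0341% higher and 0.0146% lower in SRA-/-. S100a6, S100a8 and S100a9 had an unadjusted p under 0.05, as had 3.22% of tested genes. DESeq2 called S100a8 (0.208% of genes called) and limma-voom with quality weights called S100a8 and S100a6 (0.482%). In CPM, S100a8 and S100a6 did not overlap between genotypes upwards, where 3.51% of tested genes did so, and S100a13 did not overlap downwards, where 3.12% did. Without SRA-/- replicate 2 and wild type replicate 1, edgeR called 101 genes, among them S100a8 and S100a9. The members were chosen with this comparison known, and nothing is read from these counts. A p-value here sets the difference between genotypes against the spread within genotypes among these 6 libraries, estimated with all genes.

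**Figure D4:**
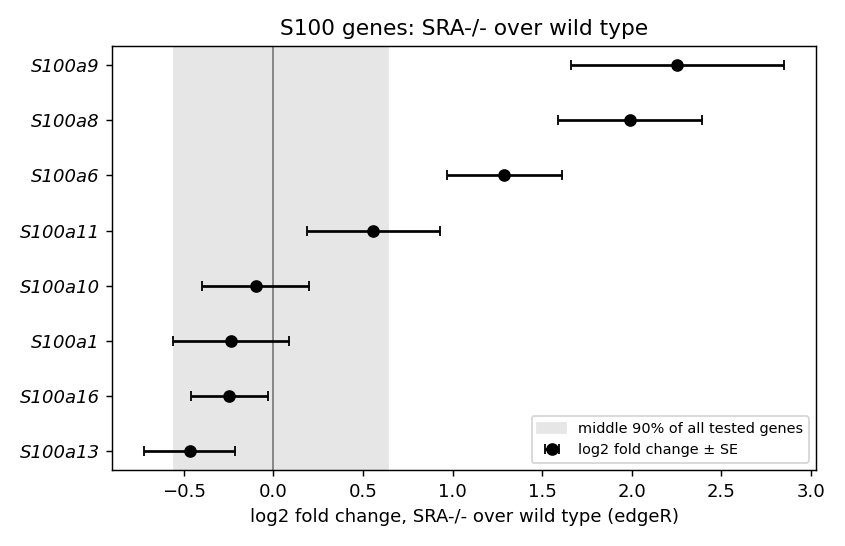
Log2 fold change of each tested S100 gene, SRA-/- over wild type, with its SE from edgeR (n = 3 each), and a grey band from the 5th to the 95th percentile of all tested genes, -0.55 to 0.64. S100a9, S100a8 and S100a6 lie right of the band and the other members lie inside it.

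The 8 S100 genes outside the list were at or near 0. S100a14, S100g and S100b had the most reads, with at most 10 counts in any library, and S100z and S100a7l2 had 0 counts in all libraries. None was tested.

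Among 13 genes listed as annexins and other partners, 7 lay above 0 and 6 below in log2 fold change. Their median was 0.03, and whether each of their proteins binds S100 proteins was not checked. None of the 13 passed edgeR's test over all genes, 2 had an unadjusted p under 0.05, against 3.22% of all tested genes, and DESeq2 and limma-voom called 0. Those were Anxa1, the partner of S100A11, at 8.55 ± 1.76 CPM in SRA-/- libraries and 4.99 ± 1.72 CPM in wild type libraries (SD, n = 3 each), and Anxa11, another annexin, at 47.8 ± 8.91 CPM in SRA-/- libraries and 33.8 ± 6.70 CPM in wild type libraries (SD, n = 3 each). Anxa2, the partner of S100A10, had 19.4 ± 3.46 CPM in SRA-/- libraries and 16.5 ± 4.96 CPM in wild type libraries (SD, n = 3 each), with a log2 fold change of 0.27 ± 0.21. The most abundant of the list, Ahnak, a giant scaffold that S100A10 and annexin A2 bind, had a log2 fold change of 0.03 ± 0.26.

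Receptors of extracellular S100 proteins and their adaptors showed no call either. Of 9 genes 6 were above 0 and 3 below, with a median of 0.05. None passed edgeR's test, 1 had an unadjusted p under 0.05, against 3.22% of all tested genes, and DESeq2 and limma-voom called 0. That gene was Cd36, a scavenger receptor, at 85.2 ± 11.6 CPM in SRA-/- libraries and 128 ± 49.3 CPM in wild type libraries (SD, n = 3 each). Tlr4 had 7.35 ± 1.12 CPM in SRA-/- libraries and 8.24 ± 2.78 CPM in wild type libraries (SD, n = 3 each). Its co-receptor Ly96 had 2.22 ± 0.275 CPM in SRA-/- libraries and 2.19 ± 0.722 CPM in wild type libraries (SD, n = 3 each). Ager, which encodes RAGE, had 2.76 ± 1.09 CPM in SRA-/- libraries and 3.71 ± 1.08 CPM in wild type libraries (SD, n = 3 each). The most abundant, Cd14, had a log2 fold change of 0.15 ± 0.33, and Alcam one of 0.29 ± 0.26.

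Of 8 transcription factors of myeloid genes, all 8 stood above 0 on the log2 fold change scale, where 48.3% of all tested genes stood, and their median was 0.10. Of the 8, 6 lay within 1 SE of 0. None passed edgeR's test, 1 had an unadjusted p under 0.05, against 3.22% of all tested genes, and DESeq2 and limma-voom called 0. That factor was Spi1, which encodes PU.1, at 27.3 ± 4.49 CPM in SRA-/- libraries and 18.2 ± 7.84 CPM in wild type libraries (SD, n = 3 each). Cebpb had a log2 fold change of 0.25 ± 0.21, Hif1a one of 0.13 ± 0.17 and Stat3, the most abundant, one of 0.07 ± 0.30.

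Of 7 fused-type genes, which join S100 domains to long repeats in skin and hair, Tchh, encoding trichohyalin (chromosome 3, 93349637 to 93356384), was the 1 with enough reads to be tested. It gave 371, 590 and 212 counts in SRA-/- replicates 1, 2 and 3, against 128, 110 and 137 in wild type replicates 1, 2 and 3. Every SRA-/- library was above every wild type library, at 12.4 ± 6.44 CPM against 4.24 ± 0.263 CPM (SD, n = 3 each), with SRA-/- replicate 2 the highest, and 3.51% of all tested genes did not overlap in this direction. Its log2 fold change of 1.56 ± 0.33 (SE) had adjusted p-values of 0.595 in edgeR, 0.00692 in DESeq2 and 0.0783 in limma-voom, and with no filter on low counts edgeR called it. No other gene shares its exon bases.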

How the data were processed

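Total RNA of liver non-parenchymal cells was depleted of ribosomal RNA and made into libraries with a KAPA kit, per the labels' protocols, and groups and replicate numbers come from the titles. The deposited values are raw counts, 1 file per library, which the authors made with featureCounts 2.0.2 over exons by gene name on GENCODE vM26, without strand, per the file headers. Alignment used STAR on mm39, per the submitters' processing notes. The header's command counts mates and not pairs, and even values made up 68.5% to 71.9% of counts between 1 and 4 but 53.6% to 55.6% between 21 and 100, so a count overstates independent fragments.

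CPM and RPKM were computed here from library totals and exon lengths. Tests used edgeR 4.0.16 in R 4.3.3 (filterByExpr, TMM with factors of 0.896 to 1.08, robust glmQLFit and glmQLFTest on genotype) over 20541 genes, with Benjamini-Hochberg adjustment and a threshold of 0.05. The SE of a log2 fold change came from its F statistic. The procedure was tested on simulated data. Alternatives were DESeq2 1.42.0, limma 3.58.1 (voom with quality weights), other scalings and filters, mitochondrial genes left out, the replicate number as a block and each library left out. Leaving out SRA-/- replicate 2 with wild type replicate 1 was chosen after seeing the data.

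Members and gene lists were chosen with earlier results of these data known. Named are all members, the other S100 genes, the lists' leading genes by p and the most abundant, and the genes of nearest pattern (log2 CPM with a prior count of 2, mean of at least 1 CPM, no predicted genes, clones or pseudogenes), of which not every gene is reported here. Copies were sought by BLAST among GENCODE vM21 transcripts. Protein sequences were not used here.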

Additional observations from a re-analysis of the deposited data

How the results depend on the processing

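Of the 8 tested S100 genes edgeR called 0, also with DESeq2 size factors, with library totals alone, with a filter of 1 CPM in 3 libraries and with mitochondrial genes left out. DESeq2 called 1 (S100a8), limma-voom 2 (S100a6 and S100a8) and edgeR without the low-count filter 1 (S100a8). With 1 library left out the count ran from 0 to 1, the 1 being S100a8 without SRA-/- replicate 2, and without that library and wild type replicate 1 it was 2 (S100a8 and S100a9). Of all tested genes 10 were called (7 higher, 3 lower), against 59 by DESeq2, 99 by limma-voom and 32 with no filter. With 1 library left out it was 3 (without SRA-/- replicate 3), 4 (without SRA-/- replicate 1 or wild type replicate 2), 9, 13 or 40 (without SRA-/- replicate 2), and without the pair 101. Of the partner, receptor, factor and fused-type genes 0 were called, against 1 by DESeq2 and 1 with no filter, both times Tchh.

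No shared animal or day is given for equal replicate numbers. The deviations of equal-numbered libraries correlated across genes at -0.29, -0.14 and -0.13, against -0.09 to 0.26 for unequal numbers. With 3 libraries per group these correlations cannot settle whether equal numbers share a day, and the main fit did not pair them. With the replicate block 0 S100 genes and 5 of all genes were called.

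Log2 fold changes of S100a6, S100a8, S100a9, S100a11, S100a13 and S100a16 kept their sign under all 15 alternatives, from 1.10 to 1.72, 1.68 to 2.33, 1.74 to 2.71, 0.37 to 0.85, -0.57 to -0.30 and -0.39 to -0.09. Those of S100a1 (-0.49 to 0.13) and S100a10 (-0.39 to 0.13) changed sign in 1 and 2 of 15. The cause was not tested. S100a6 had 29 to 212 and S100a11 33 to 163 counts per library, which limits their precision.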
